A study of Mus musculus with 5 samples.

Results

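Astrocytes and Bergmann glia, the radial astrocytes of the cerebellar cortex, were followed here through 10 of their characteristic genes in mouse medulloblastoma. The 10 genes were taken by symbol: Gfap, Slc1a2, Slc1a3, Aqp4, Aldh1l1, S100b, Gja1, Gdf10, Sparcl1 and Glul. All 10 were among the 17739 genes of the deposited table, and all 10 had a mean of at least 5 on its log2 scale. The tumours came from Math1-Cre;Gli2A mice, which carry the Gli2A transgene at the R26 locus. The mice ate a doxycycline diet from embryonic day 0 (conception), and the labels describe GLI2 as active. Math1 (Atoh1) marks granule neuron progenitors, so the Cre driver is not one of astrocytes. Tumour cells were taken from the cerebellum, dissociated with papain and lysed for RNA with no sorting step described. There was 1 group of 5 libraries, named here as tumours 1, 5, 8, 14 and 15 by the numbers in their titles, with no normal cerebellum, no other genotype and no animal ages. The labels do not say that each number is a separate animal, so the spread between libraries may be partly technical.

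Astrocytes take up glutamate released at synapses through the transporters encoded by Slc1a2 and Slc1a3, turn it into glutamine with glutamine synthetase (Glul), couple to each other through connexin gap junctions and move water through aquaporin-4 at endfeet on blood vessels. Bergmann glia span the molecular layer of the cerebellum, guide migrating granule neurons and carry much Slc1a3 and Gdf10. None of the genes is exclusive to astrocytes: Slc1a3 is also used by neural stem cells, S100b and Glul by oligodendrocytes, Gja1 by leptomeningeal cells and Sparcl1 by blood vessels. In RNA from a whole cell suspension, fewer cells of a type and less RNA per cell cannot be told apart.

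The sequence just before the transcription start is shown for 4 of the genes: Gfap as the defining astrocyte gene, Gdf10 as the one that differed most between tumours, and Slc1a3 and Gja1 as genes that were highest in tumour 5. Each run is the 250 bases before the RefSeq start, 5′ to 3′ on the gene's strand, in GRCm38.p6; RefSeq promoters were matched for 8 of the 10 genes. They lie at chr11:102897201-102897450 (minus strand), chr14:33923337-33923586 (plus), chr15:8710808-8711057 (minus) and chr10:56377050-56377299 (plus), and none of their bases fall in an annotated exon of the gene. The RefSeq start of Gfap lies inside the GENCODE span of the gene given with its values. Capitals mark matches on either strand to any of 5 searched motifs.
Gfap: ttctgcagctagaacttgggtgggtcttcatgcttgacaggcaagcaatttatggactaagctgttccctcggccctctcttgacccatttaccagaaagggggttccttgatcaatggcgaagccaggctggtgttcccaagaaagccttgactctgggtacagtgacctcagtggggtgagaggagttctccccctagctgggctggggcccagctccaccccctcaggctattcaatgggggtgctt
Gdf10: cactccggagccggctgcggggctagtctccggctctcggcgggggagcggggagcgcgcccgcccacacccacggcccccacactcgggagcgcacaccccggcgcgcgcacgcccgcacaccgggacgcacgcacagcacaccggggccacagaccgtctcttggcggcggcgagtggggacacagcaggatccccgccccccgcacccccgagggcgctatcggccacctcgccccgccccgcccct
Slc1a3: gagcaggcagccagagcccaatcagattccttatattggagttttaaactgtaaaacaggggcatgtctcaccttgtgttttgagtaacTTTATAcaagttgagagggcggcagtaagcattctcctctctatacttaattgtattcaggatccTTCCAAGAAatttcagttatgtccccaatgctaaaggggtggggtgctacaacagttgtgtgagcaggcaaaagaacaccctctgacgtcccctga
Gja1: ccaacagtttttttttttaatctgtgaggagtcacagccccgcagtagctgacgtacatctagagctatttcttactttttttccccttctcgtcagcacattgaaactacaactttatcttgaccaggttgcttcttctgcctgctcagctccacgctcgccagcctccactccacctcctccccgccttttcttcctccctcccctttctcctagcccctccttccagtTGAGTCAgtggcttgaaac
The Slc1a3 window held 1 match to the STAT motif (TTCNNNGAA), 96 to 88 bases before the start, and 1 to the TATA motif (TATAAA) on the opposite strand. These motifs were present in 7.18% and 13.0% of the 27025 promoters searched. The Gja1 window held 1 match to the AP-1 motif (TGANTCA), 19 to 13 bases before the start, present in 6.87% of all promoters. Of the 8 matched windows, 1 each held the STAT, TATA and AP-1 motifs. Slc1a2 and Glul were also highest in tumour 5, and their windows, not shown, held no match to any of the 5 motifs. The Gfap and Gdf10 windows held no match to any of the 5 motifs. Among these, the GLI motif (GACCACCCA) was present in 0.211% of promoters and in 0 of the 8 matched here. A partial NFI motif (TTGGCA) was present in 12.5% of promoters and in 1 of the 8, that of S100b, which is not shown. The Gdf10 window was 78.8% G and C, and those of Gfap, Gja1 and Slc1a3 were 55.6%, 50% and 44.8%. A match describes the letters and is not evidence of binding.

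The libraries were similar but not equal. SHH targets, which mark this tumour type, were high throughout: the median of 9 of them averaged 12.38 ± 0.18 (SD, n = 5). More than 2-fold differences were most frequent between tumours 5 and 15 (323 of the 13691 genes averaging 5 or more) and least between tumours 8 and 14 (32). By the median absolute difference, tumours 8 and 15 were the farthest apart (0.136, against 0.129 for tumours 5 and 15). Tumour 1 stood apart in another way. There 10 of 10 dissociation stress genes (Fos, Jun, Egr1 and others) were lowest, against 16.9% of the genes averaging 5 or more. The column medians lay between 8.51 and 8.58. The depth of each library is unknown, because the values are not counts.

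All 10 glial genes were expressed in every tumour, most of them strongly. Their median was 11.73 in tumour 1, 12.04 in tumour 5, 11.92 in tumour 8, 12.04 in tumour 14 and 12.18 in tumour 15 (mean 11.98 ± 0.17, SD, n = 5). The median over all genes averaging 5 or more lay between 9.39 and 9.41. Averaged instead of taking the median, the 10 genes were highest in tumour 5, at 11.92, and not in tumour 15, at 11.65. Both summaries were lowest in tumour 1.

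**Figure D1:**
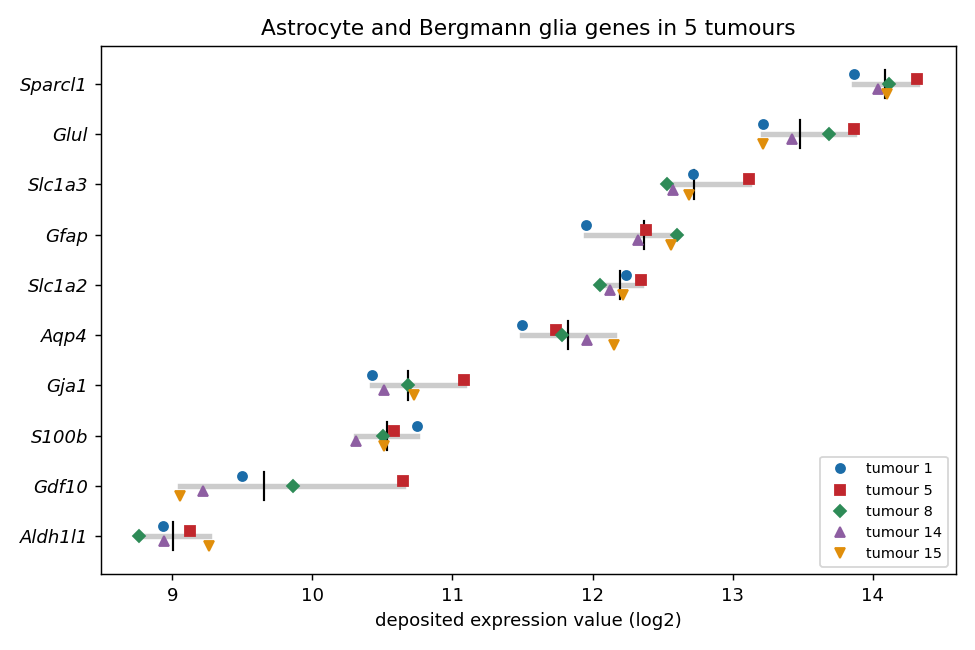
Deposited log2 expression value (horizontal axis) of the 10 glial genes, ordered by mean. Symbols are the 5 tumours, grey bars the range and black ticks the mean. Gdf10 has the widest bar, from 9.06 to 10.65, and Slc1a2 the narrowest, from 12.05 to 12.35.

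Of the glutamate transporters, Slc1a3 (GLAST, the main transporter of Bergmann glia; GRCm38 chromosome 15, 8634124 to 8710764, protein coding) stood at 12.72 in tumour 1, 13.12 in tumour 5, 12.53 in tumour 8, 12.57 in tumour 14 and 12.69 in tumour 15. Tumour 5 was above the other 4, which lay within 0.19 of each other. The mean was 12.73 ± 0.23 (SD, n = 5). Slc1a2 (GLT-1, the main transporter of forebrain astrocytes; chromosome 2, 102658659 to 102790784) varied least of all 10 genes, with 12.24, 12.35, 12.05, 12.12 and 12.22 in tumours 1, 5, 8, 14 and 15 (mean 12.20 ± 0.11). Its SD was at the 51.8th percentile of genes averaging 5 or more, close to a typical gene. After subtracting log2 exon length, Slc1a3 exceeded Slc1a2 in 5 of 5 tumours, by 1.15 ± 0.14 on the log2 scale. The difference was 1.39 in tumour 5 and between 1.07 and 1.10 in the other 4. Slc1a3 also exceeded Slc1a1, a transporter of neurons, by 2.12 ± 0.42 per length in 5 of 5 tumours. Signs of the differences were permuted exactly and both sides counted: p was 0.0625 for each pair, the smallest that 5 tumours allow, and 0.0781 adjusted over 10 pairs, so neither passed 0.05.

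Glul, which makes glutamine from glutamate and ammonia (chromosome 1, 153899944 to 153909723), was 13.22 in tumour 1, 13.87 in tumour 5, 13.69 in tumour 8, 13.43 in tumour 14 and 13.21 in tumour 15. Tumours 5 and 8 were high and tumours 1 and 15 low, a 1.57-fold range around a mean of 13.48 ± 0.29. Of 11 further genes of glutamate and glutamine handling, 6 were highest in tumour 5 and 5 lowest in tumour 15. Among genes averaging 5 or more, 24.1% were highest in tumour 5 and 22.9% lowest in tumour 15. Not corrected for length, the glutamine carriers Slc38a2 and Slc38a1 had values of 13.09 ± 0.13 and 12.99 ± 0.08, and Gls2 of 5.06 ± 0.23. The most variable gene of the list was Slc17a7, a vesicular glutamate transporter of mature granule neurons, between 7.91 in tumour 15 and 9.21 in tumour 5. On the opposite strand, 116 exonic bases of Glul overlap Teddm2, 189 of Slc1a2 overlap Gm13872 and 499 of Aldh1l1 overlap Gm15756. None of the 3 overlapping genes is in the table, and the strand setting of the counting is not given in the sources used here.

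Gfap, the intermediate filament of astrocytes (chromosome 11, 102887336 to 102900912), was 11.95 in tumour 1, 12.38 in tumour 5, 12.60 in tumour 8, 12.32 in tumour 14 and 12.56 in tumour 15 (mean 12.36 ± 0.26). Tumour 1 alone was below 12. Its deviation from the median of the other 4 was -0.52. Beside it in tumour 1, the dissociation stress genes had a median of 11.76, against 12.16 to 12.41 in the other tumours, with a median deviation of -0.70; the part of that difference in the Gfap value was not tested. Vim, the filament that Gfap joins in astrocytes and that many other cells use, averaged 12.53 ± 0.19 and was highest in tumour 15, at 12.86. Per length Gfap minus Vim was 0.00 ± 0.27, between -0.37 and 0.33, above 0 in 3 of 5 tumours (p = 1 by exact permutation, 1 adjusted). The data therefore gave no order of these genes, and the sign changed with the length used.

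S100b, a calcium-binding protein of astrocytes and of part of the oligodendrocyte lineage (chromosome 10, 76253853 to 76261159), followed another pattern. Its values were 10.75, 10.58, 10.51, 10.31 and 10.51 in tumours 1, 5, 8, 14 and 15 (mean 10.53 ± 0.16). It was the only one of the 10 genes to be highest in tumour 1. There the oligodendrocyte precursor markers were highest for 6 of 7 genes (20.2% of genes averaging 5 or more). Their summed level was 14.83, against 14.37 to 14.55 elsewhere. The oligodendrocyte markers were lowest there for 7 of 9 (16.9%). The part of these cells in the S100b value was not tested. Per length S100b exceeded S100a1, a relative, by 1.02 ± 0.13 in 5 of 5 tumours (p = 0.0625 by exact permutation, 0.0781 adjusted).

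Aldh1l1, a folate enzyme often used to identify astrocytes (chromosome 6, 90486427 to 90600203), was the lowest of the 10 genes, with 8.93 in tumour 1, 9.13 in tumour 5, 8.77 in tumour 8, 8.94 in tumour 14 and 9.26 in tumour 15 (mean 9.01 ± 0.19). Tumour 15 was highest and tumour 8 lowest. Its mitochondrial relative Aldh1l2 averaged 9.98 ± 0.15. Per length the difference of Aldh1l1 minus Aldh1l2 was -0.24 ± 0.26, below 0 in 4 of 5 tumours (p = 0.188 by exact permutation, 0.208 adjusted), and without the length subtraction -0.98, below 0 in 5 of 5.

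Aqp4, the water channel of endfeet (chromosome 18, 15389496 to 15410982), was 11.50 in tumour 1, 11.74 in tumour 5, 11.78 in tumour 8, 11.96 in tumour 14 and 12.15 in tumour 15 (mean 11.82 ± 0.24). Unlike Gdf10, it was not highest in tumour 5, where it deviated by -0.13 from the median of the others, against 0.39 in tumour 15. Aqp1, the water channel of choroid plexus epithelium, averaged 7.56 ± 0.42. Per length Aqp4 exceeded it by 3.02 ± 0.49 in 5 of 5 tumours, least in tumour 5 (2.26) and most in tumour 15 (3.56; p = 0.0625 by exact permutation, 0.0781 adjusted). Of 9 further endfoot genes, 4 were highest and 4 lowest in tumour 5 (24.1% and 24.6% of genes averaging 5 or more), while 4 were highest and 0 lowest in tumour 15 (21.4% and 22.9%). Dag1, the dystroglycan that anchors the endfoot to the basement membrane, averaged 12.15 ± 0.09. Agrn, a basement membrane proteoglycan, averaged 12.07 ± 0.21. Lama2, a laminin chain that vessel and fibroblast cells also make, varied most, from 9.82 in tumour 5 to 11.00 in tumour 15.

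Gja1, the connexin-43 of astrocyte gap junctions (chromosome 10, 56377330 to 56402513), was 10.43 in tumour 1, 11.09 in tumour 5, 10.68 in tumour 8, 10.51 in tumour 14 and 10.72 in tumour 15 (mean 10.69 ± 0.25). Tumour 5 was highest, by 0.49 over the median of the others. Gjb6, the connexin-30 of mature astrocytes, was lower and varied more: 7.46, 8.73, 7.95, 7.68 and 7.32 in tumours 1, 5, 8, 14 and 15, a 2.66-fold range. Per length Gja1 exceeded Gjb6 by 0.92 ± 0.38 in 5 of 5 tumours, by as little as 0.41 in tumour 5 and as much as 1.46 in tumour 15 (p = 0.0625 by exact permutation, 0.0781 adjusted). Of the 7 other connexin genes, Gjc1 (10.94 ± 0.17) and the oligodendrocyte connexin gene Gjc3 (9.70 ± 0.20) were highest by mean.

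Sparcl1 (hevin, a secreted protein that promotes synapse formation; chromosome 5, 104079111 to 104113733) was the most abundant of the 10, with 13.86, 14.31, 14.12, 14.04 and 14.10 in tumours 1, 5, 8, 14 and 15 (mean 14.09 ± 0.16). Its mean lay at the 99.7th percentile of all genes in the table. Sparc, a related matrix protein of Bergmann glia, vessels and fibroblasts, averaged 13.70 ± 0.25. Per length Sparcl1 exceeded Sparc by 0.76 ± 0.17 in 5 of 5 tumours (p = 0.0625 by exact permutation, 0.0781 adjusted). With the longest annotated transcript as the length the difference was 0.13 (p = 0.25 by exact permutation), so its size rests on the length used. Among the glial genes, Sparcl1 and Gja1 were the pair with the most similar pattern over the tumours, with a root mean square difference of 0.10 between their deviations from the mean.

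Gdf10, a BMP-family ligand known in the cerebellum for its expression in Bergmann glia (chromosome 14, 33923587 to 33937983), differed most between tumours. It was 9.50 in tumour 1, 10.65 in tumour 5, 9.86 in tumour 8, 9.22 in tumour 14 and 9.06 in tumour 15 (mean 9.65 ± 0.63). The highest and lowest tumours were 3.01-fold apart, and Gdf10 was the only one of the 10 genes with a range over 2-fold, against 3.79% of genes averaging 5 or more. Its SD was at the 99.4th percentile of those genes. Without tumour 5 the range was 1.75-fold, between 9.06 and 9.86, and 0 of the 10 genes passed 2-fold. Bmp3, its closest relative, averaged 6.79 ± 0.55 and was lowest in tumour 5 (6.09) and highest in tumour 15 (7.39). Per length Gdf10 exceeded Bmp3 by 3.37 ± 1.10 in 5 of 5 tumours, from 2.17 in tumour 15 to 5.06 in tumour 5 (p = 0.0625 by exact permutation, 0.0781 adjusted). Gdf10 and Aqp4 were the most different pair of the 10, with a root mean square difference of 0.70. This distance grows with a gene's SD, and Gdf10 had the largest SD of the 10.

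**Figure D2:**
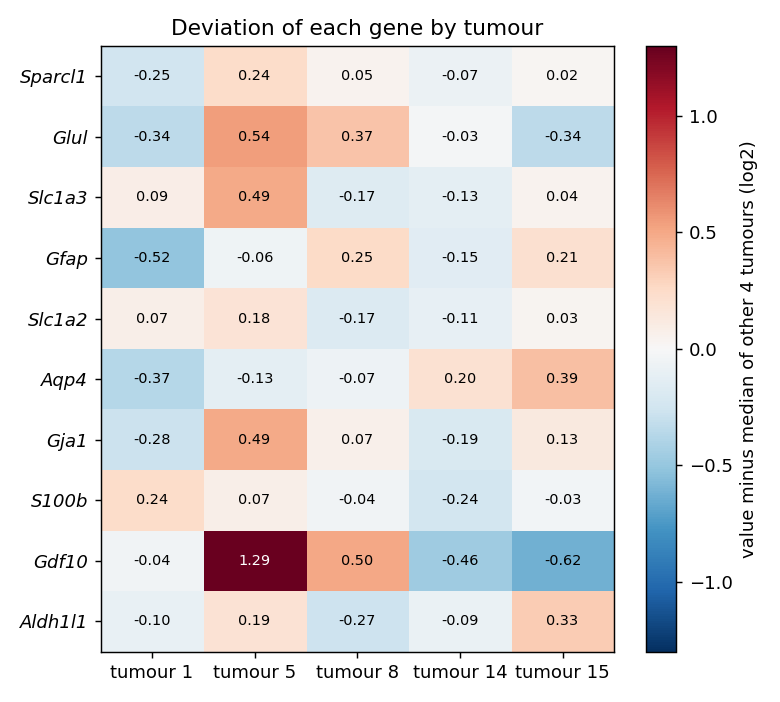
Distance of each glial gene's value in each tumour from its median across the remaining 4 (log2, colour and number; red higher, blue lower). Tumour 5 is high for Gdf10 (1.29), Glul (0.54), Slc1a3 (0.49) and Gja1 (0.49), tumour 1 is low for Gfap (-0.52) and tumour 15 is high for Aqp4 (0.39).

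Levels can be compared between genes only per length. After subtracting log2 exon length in kilobases, the order from high to low was Sparcl1 (12.53), Glul (11.75), Gfap (10.29), S100b (9.96), Slc1a3 (9.63), Aqp4 (9.19), Slc1a2 (8.48), Gja1 (7.33), Gdf10 (7.27) and Aldh1l1 (6.83). Sparcl1 stayed near the top of all genes, at the 99.7th percentile of 17302 genes with a length, and Aldh1l1 lay at the 55.3rd. Of the 9 steps between neighbours in this order, 3 were smaller than the SD of the difference within tumours: Gfap to S100b (0.33 ± 0.37), Gja1 to Gdf10 (0.05 ± 0.47) and Gdf10 to Aldh1l1 (0.44 ± 0.68). The step from S100b to Slc1a3 (0.33 ± 0.22) was above 0 in 4 of 5 tumours. The other 5 steps had the same sign in 5 of 5 tumours, from 0.45 ± 0.38 for Slc1a3 to Aqp4 up to 1.46 ± 0.31 for Glul to Gfap (p = 0.0625 by exact permutation, 0.112 adjusted over 9 steps). With the longest annotated transcript as the length, S100b minus Slc1a3 was -0.61 and Slc1a2 minus Gja1 -0.065. That length also widened the steps from Gfap to S100b (0.997) and from Gja1 to Gdf10 (1.45), each then above 0 in 5 of 5 tumours (p = 0.0625 by exact permutation), so this part of the order depends on the length used.

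**Figure D3:**
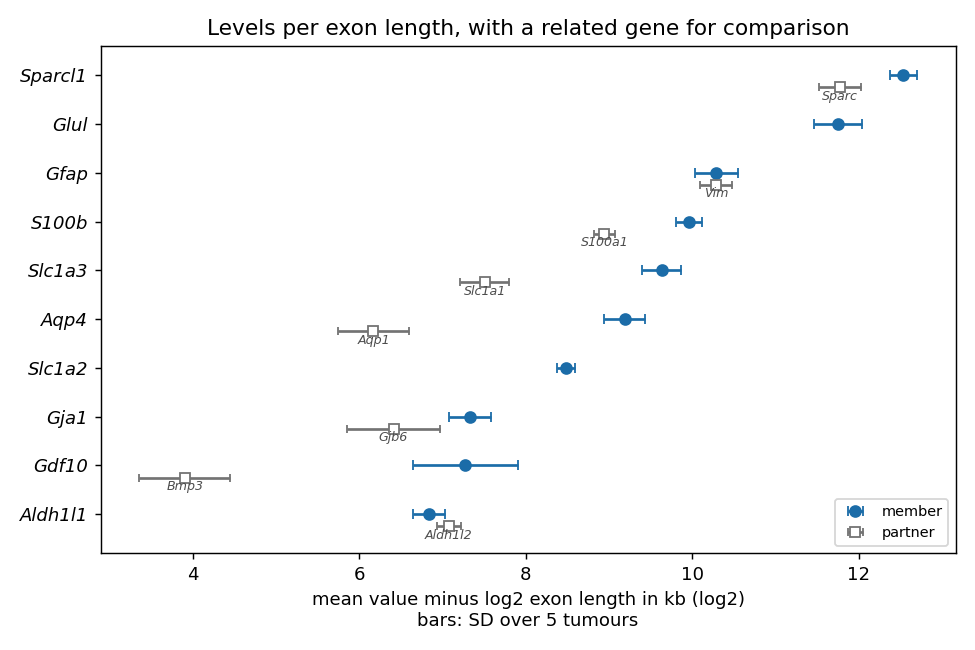
Mean value minus log2 exon length in kilobases (horizontal axis; bars are the SD over 5 tumours) for the 10 glial genes (filled circles) and related genes outside the 10 (open squares). Aqp4 lies 3.02 above Aqp1, while Gfap and Vim coincide.

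The 10 genes did not vary as 1 block. Their median SD was 0.24, against 0.11 for genes averaging 5 or more. This was not particular to the 10 genes. The other gene lists also lay above 0.11, from 0.15 for endfoot complex genes to 0.54 for oligodendrocyte markers, with other astrocyte genes at 0.23. Tumour 5 was highest for 6 of the 10 (Slc1a2, Slc1a3, Gja1, Gdf10, Sparcl1 and Glul), against 24.1% of all genes averaging 5 or more. Tumour 15 was highest for 2 (21.4% of genes), tumours 1 and 8 for 1 each (20.2% and 18.5%) and tumour 14 for 0 (15.8%). Tumour 1 was lowest for 4 (Gfap, Aqp4, Gja1 and Sparcl1), against 16.9% of genes, and tumour 8 for 3 (Slc1a2, Slc1a3 and Aldh1l1), against 22.6%. Tumour 15 was lowest for 2 (22.9%), tumour 14 for 1 (13.0%) and tumour 5 for 0 (24.6%). These shares describe 5 single libraries and carry no test.

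Of 27 further astrocyte genes, 18 were highest in tumour 5 (24.1% of genes averaging 5 or more), with a median deviation of 0.49 there. The list's median was 9.58, 10.44, 10.04, 9.73 and 9.71 in tumours 1, 5, 8, 14 and 15. Not corrected for length, Apoe, the lipid carrier of astrocytes and microglia, averaged 14.58 ± 0.37, the sodium pump subunit gene Atp1b2 13.00 ± 0.22 and Cyp4f14 4.95 ± 0.26. Of 13 genes of Bergmann glia beside the 10, 6 were highest in tumour 5 (24.1% of genes) and 5 lowest there (24.6%). Another 6 were highest in tumour 15 (21.4%). Ptprz1, a receptor phosphatase gene, averaged 12.60 ± 0.21. Dao, a D-amino acid oxidase of Bergmann glia, was low (4.55 ± 0.62) with its highest value in tumour 5 (5.58, against 4.06 to 4.58), and Npy averaged 4.50 ± 0.41.

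Of 19 genes of reactive astrocytes, 10 were highest and 0 lowest in tumour 15 (21.4% and 22.9% of genes averaging 5 or more). In tumour 5, 5 were highest and 7 lowest (24.1% and 24.6%), and 6 were lowest in tumour 14 (13.0%). The list's median was 7.30, 6.85, 7.41, 6.98 and 7.29 in tumours 1, 5, 8, 14 and 15. Hspb1, a small heat shock protein, averaged 9.87 ± 0.53 and ranged from 9.25 in tumour 1 to 10.51 in tumour 15. The dissociation stress genes were also lowest in tumour 1 for 10 of 10 (16.9% of genes). They were highest in tumour 15 for 4 (21.4%) and in tumours 5 and 8 for 3 each (24.1% and 18.5%). The part of that stress in the Hspb1 value was not tested. Cp, the copper carrier ceruloplasmin, averaged 9.83 ± 0.33. Steap4 spanned 6.85 to 8.12, lowest in tumour 5 and highest in tumour 15, and the complement gene C3 averaged 4.53 ± 0.14. Pericyte and fibroblast markers, cells that express several of these genes, were highest in tumour 15 for 5 of 10 and lowest in tumours 5 and 14 for 4 each, with summed levels from 14.22 in tumour 5 to 15.07 in tumour 15. Their part in the reactive list was not tested.

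Tumour 5 also held the highest values of most markers of several other cell types. Of all genes averaging 5 or more, 24.1% were highest and 24.6% lowest there. Oligodendrocyte markers were highest there for 9 of 9 genes, with a summed level of 15.87 against 14.49 to 15.51 elsewhere. Microglia and macrophage markers were highest there for 10 of 12 (14.03 against 13.22 to 13.48) and endothelial markers for 8 of 10 (12.97 against 12.30 to 12.65). Choroid plexus and ependymal markers were highest there for 6 of 8 (14.88 against 13.37 to 13.57). Most of that sum was 1 gene, Ttr, at 14.71 in tumour 5 and 13.01 to 13.17 elsewhere. The median deviation of this list in tumour 5 was 0.81. Mature granule neuron markers were highest there for 7 of 10 (14.23 against 13.84 to 14.18). SHH targets were lowest in tumour 5 for 8 of 9 genes. Summed levels are log2 of the sum of the list's values taken off the log scale, and 0 of the listed genes had a value at or under 0. The part of these cells in the values of Gdf10, Glul, Slc1a3 and Gja1 in tumour 5 was not tested. Neural stem cell markers overlap with the Bergmann list at Vim and Fabp7. They were lowest in tumour 5 for 9 of 10 and highest in tumour 15 for 7 of 10 (24.6% and 21.4% of genes).

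**Figure D4:**
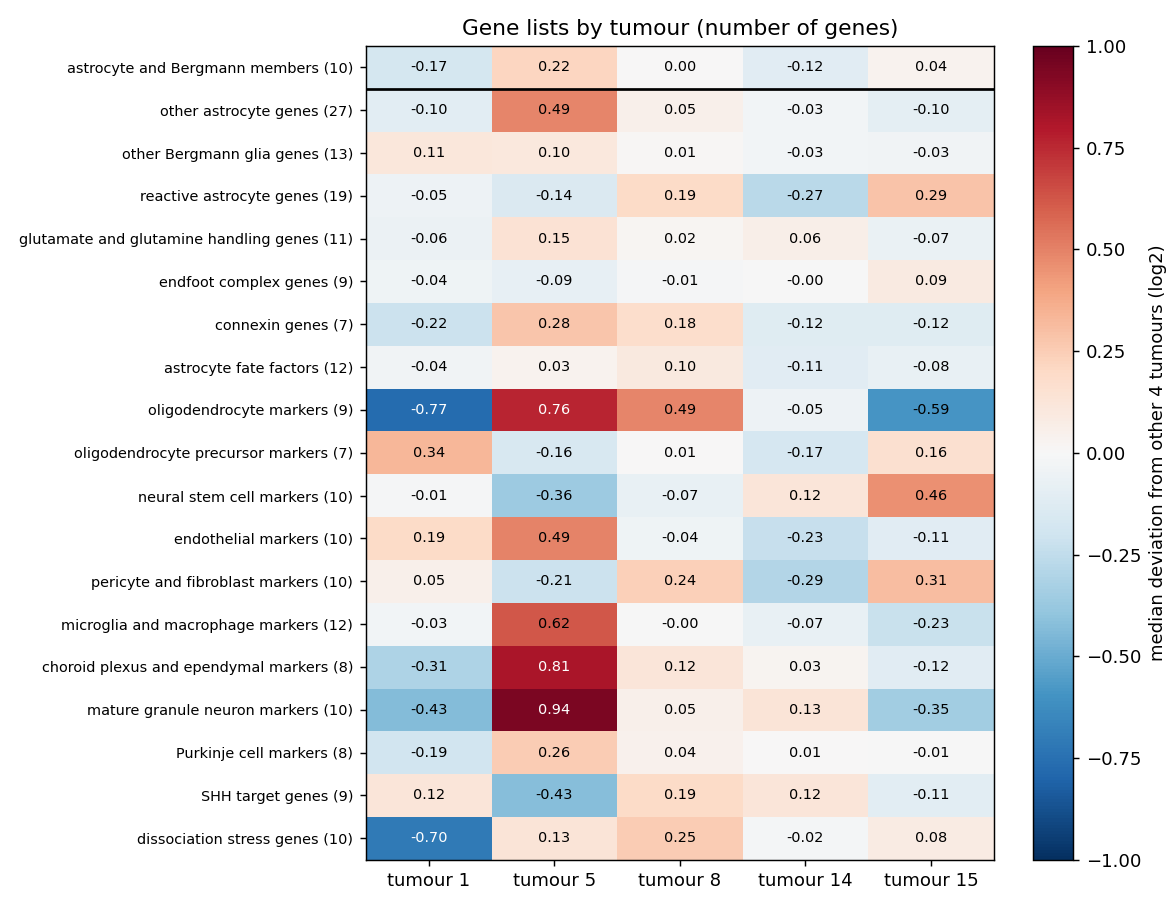
Median over the genes of each list of each value's distance from the median across the remaining tumours (log2, colour and number), for the 10 glial genes (top row) and 18 other lists with their gene numbers. In tumour 5 the glial genes deviate by 0.22, other astrocyte genes by 0.49, oligodendrocyte markers by 0.76 and SHH targets by -0.43.

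For each glial gene, the genes outside the 10 with the most similar pattern were those with the smallest root mean square difference between deviations from their means over the 5 tumours. With 13691 genes and 5 values each, close matches are easy to find, and they carry no statement on function. Gdf10 was nearest to Ly6a (0.064), Slco1a4, an organic anion transporter of brain endothelium (0.115), and the chemokine gene Ccl3 (0.127). Gfap was nearest to the WNT receptor gene Fzd5 (0.031), Btg2, an early response gene (0.037), and Spint1 (0.057). Aqp4 was nearest to Pard3b (0.030), Hey1, a Notch target (0.037), and Adgra1 (0.043). Slc1a3 was nearest to Pfkp, a phosphofructokinase gene, and Slc1a2 to Fgf13. Glul was nearest to Acacb, an acetyl-CoA carboxylase gene, Gja1 to Emb, S100b to Grrp1, Sparcl1 to Plcd4 and Aldh1l1 to Tmem170. The distances of these 7 single nearest genes lay between 0.0087 and 0.028.

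**Figure D5:**
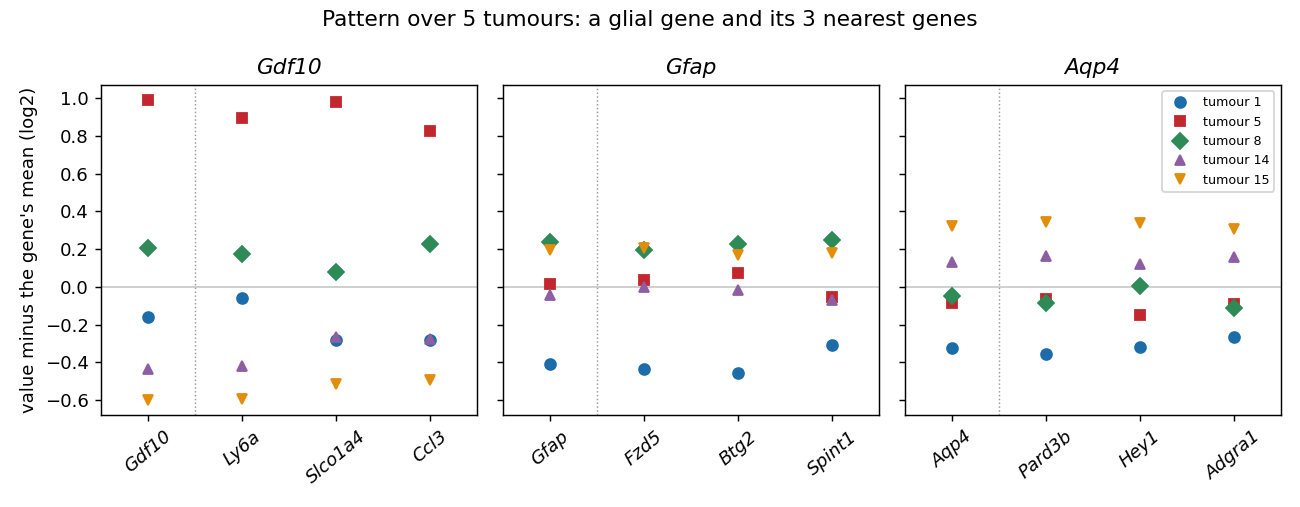
Value minus the gene's mean (vertical axis, log2) for Gdf10, Gfap and Aqp4, each left of a dotted line, and the 3 nearest genes of each; symbols are the 5 tumours. Tumour 5 stands high for Gdf10 and its neighbours, tumour 1 low for Gfap and its neighbours, and tumour 15 high for Aqp4 and its neighbours.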

How the data were processed

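RNA from 5 tumour cell samples of 1 group was analysed. The authors deposited 1 table of log2 values per gene and library, taken to be the regularised log of DESeq2 because the table's name and those notes point to it; this transformation corrects for library size, not for transcript length, and pulls weakly expressed genes towards their mean. Per the submitters' processing notes, STAR 2.4.1, featureCounts from Subread 1.4.6 and DESeq2 were used with mm10 and GRCm38; annotation and strand setting: not given in the sources used here. Of 7 value columns, 2 match no sample and were not used; whether they entered the authors' transformation, and so the shrinkage of every value, is not known. Depth is unknown, so no counting intervals are given.

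Values were used as deposited. Exon lengths (union of exons) came from GENCODE M21 on GRCm38, where 97.5% of symbols matched 1 gene. Pairs and neighbours were compared within tumours by permuting the signs of the differences exactly (two-sided, 32 patterns), with Benjamini-Hochberg adjustment. Shares over all genes used the 13691 with a mean of at least 5. Members, 18 other lists (192 genes, all in the table; Sept4 is listed there as Septin4), pairs and motifs were chosen with earlier results of these data known. Named genes were the members, the pairs, the 2 highest, the lowest and the most variable gene of each list, and the 3 nearest genes; some are not reported here. Genes named otherwise were chosen after their values were seen. Alternatives were centring columns, leaving out each tumour, list means, other thresholds, no filter, no or another length and another distance. The transcript-length alternative was chosen after seeing the data. Steps were tested on simulated data. Python 3.11.15, numpy 2.4.6, pandas 2.3.3, scipy 1.17.1 and matplotlib 3.10.9 were used.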

Additional observations from a re-analysis of the deposited data

Results flagged for a closer look

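Values were screened for 1 tumour far from the other 4 by Dixon's test (gap to the nearest value over the whole range above 0.71), which chance exceeds in about 1 in 20 sets of values. The 116 sets screened covered the glial genes, the list medians, the differences between genes and the genes named from lists. Of these, 6 passed, close to the number that a rate of 1 in 20 gives for 116 sets. None of the 10 glial genes and none of the list medians passed by themselves. The difference Slc1a3 minus Slc1a2 per length was 1.39 in tumour 5, with the next at 1.10. The difference S100b minus S100a1 was 1.24 in tumour 1, with the next at 1.01. Vim was 12.86 in tumour 15, with the next at 12.49. Markers of other cells made up the rest. In tumour 5 these were the choroid plexus gene Ttr at 14.71 (next 13.17) and the endothelial receptor gene Flt1 at 10.98 (next 10.15). In tumour 1 Bcas1, a gene of early oligodendrocytes, was 12.47 (next 12.35).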

How the results depend on the processing

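Leaving out each tumour in turn moved the mean of any of the 10 genes by at most 0.25, and centring columns moved any value by at most 0.034. The list level was 11.93 to 12.05 without 1 tumour and 11.66 as a mean over members. The number of genes with a range over 2-fold was 0 without tumour 5 and 1 without any other. Tumour 5 was highest for 6 to 7 genes and tumour 1 lowest for 4 to 5 with another tumour left out; without tumour 5, tumour 8 was highest for 4. Gfap minus Vim changed sign, to -0.17 without length and -0.023 with the longest transcript, and ranged from -0.079 (without tumour 8) to 0.096 with 1 tumour left out, negative also without tumours 5 (-0.038) and 14 (-0.0036). Without length, S100b minus Slc1a3 was -2.19 and Aqp4 minus Slc1a2 -0.37; with the longest transcript S100b minus Slc1a3 was -0.61 and Slc1a2 minus Gja1 -0.065. Gja1 minus Gdf10 ranged from -0.11 without tumour 15 to 0.20 without tumour 5, was -0.012 without tumour 14, and reached 1.03 without length and 1.45 with the longest transcript. The longest transcript also gave 0.13 for Sparcl1 minus Sparc, 0.997 for Gfap minus S100b, 1.92 for Slc1a3 minus Slc1a2 and 1.97 for Gja1 minus Gjb6. The length used sets the order of genes by construction. The other sign changes, with 1 tumour left out, were those of Gfap minus Vim and Gja1 minus Gdf10. Both mean differences were smaller than their SD over tumours (0.00 ± 0.27 and 0.05 ± 0.47). No paired comparison between groups was possible because there is 1 group. Low values are pulled together by the transformation, which limits what Dao, Npy or Gls2 can show.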

Other observations

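Of 12 transcription factors and signals known for their part in the formation of astrocytes, the 3 NFI factors had values near the top of the table, and granule neuron progenitors express these too. The median of the 12 averaged 9.99 ± 0.24. Nfib averaged 15.29 ± 0.08 (SD, n = 5), Nfix 15.21 ± 0.10 and Nfia 14.13 ± 0.09. Nfia and Sox9 were singled out after their values were seen. Sox9, a factor of astrocytes and glial progenitors, averaged 11.82 ± 0.32 and was lowest in tumour 15, at 11.37, where Aqp4 and Aldh1l1 were highest. By SD Zbtb20 varied most of the 12 listed factors (0.33), from 8.78 in tumour 15 to 9.60 in tumour 5. The range of Sox9 was slightly wider (0.83, against 0.81 for Zbtb20). Hes5, a Notch target, averaged 7.37 ± 0.30 and was highest in tumour 15, at 7.86. Of the 12, 5 were highest and 4 lowest in tumour 15 (21.4% and 22.9% of genes averaging 5 or more). In tumour 5, 1 was highest (24.1%), and 0 of the 12 had a range over 2-fold (3.79%).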
